A study of Mus musculus with 15 samples.

Results

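The expression of 30 erythroid membrane and maturation genes was examined across 4 genotypes in lineage-negative bone marrow cells of secondary transplant recipients. The genes were listed by name as erythroid genes other than globins and heme enzymes, and they are 30 of the 45706 genes in the count table. All 30 were found by symbol, all are protein coding, and all passed the filter on low counts that left 18983 genes for testing. The donor cells were LSK stem and progenitor cells (lineage-negative, Sca-1+, Kit+) of C57BL/6J background, passed through 2 rounds of recipients that had been lethally irradiated and carried the CD45.1 allele. Donors were WT (3 libraries), Puma-/-, which lack the pro-apoptotic BH3-only protein PUMA (4 libraries), G3 mTerc-/-Puma+/+, a late generation (G3) without the telomerase RNA (4 libraries), or carried both deletions by their label, G3 mTerc-/-Puma-/- (4 libraries). The titles name replicates and not animals, so the p-values measure the spread between these libraries. The marrow was depleted of cells carrying lineage markers, Ter119 among them, so that later erythroblasts were largely removed before RNA was extracted, and residual cells of the irradiated host may be present. In bulk RNA, fewer erythroid cells and less RNA per cell cannot be told apart.

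Red cells mature from committed progenitors through a series of erythroblasts that divide, fill with hemoglobin, lose their nucleus and rebuild their surface. Klf1 is a transcription factor that, with GATA1, switches on much of this programme. The mature membrane holds band 3, an anion exchanger that ankyrin and its partner Epb42 tie to a spectrin network, while Rh proteins, carbonic anhydrases and aquaporin serve gas and water transport. Some of these genes, such as Tfrc, Xpo7 and Epb41, are also used by many other cells of the marrow.

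The libraries held 102790519 to 158367059 counts. Terc was at 4 to 17 counts in the WT and Puma-/- libraries and at 0 or 1 count in both mTerc-/- groups. Bbc3, which encodes PUMA, lay between 5.04 and 6.83 CPM (counts scaled to library size with TMM factors) in Puma-/-, between 9.71 and 23.6 in WT and between 13.5 and 17.1 in the libraries bearing the G3 mTerc-/-Puma-/- label. The level in that group thus went against its label, and every statement on it below rests on the label. All 4 Puma-/- libraries had Xist at 466 to 868 CPM with Ddx3y at no more than 0.0448 CPM. Ddx3y was at 42.8 to 48.3 CPM in all 4 G3 mTerc-/-Puma+/+ libraries and at 21.3 to 43.2 CPM in all 3 WT libraries. WT replicates 1, 2 and 3 had Xist at 418, 212 and 1.73 CPM. Sex and genotype therefore cannot be told apart in Puma-/- against WT or in G3 mTerc-/-Puma+/+ against Puma-/-. Replicates 1 and 4 of the G3 mTerc-/-Puma-/- label had Xist at 663 and 446 CPM with Ddx3y at 2.88 and 4.27 CPM. In replicate 2 of that label Xist was at 89.4 and Ddx3y at 38.9 CPM, and in replicate 3 they were at 0.388 and 46.0 CPM. Ddx3y in all 4 libraries of that label was thus above every Puma-/- library. Sex and genotype therefore cannot be told apart in the label against Puma-/- either. Replicate 2 of G3 mTerc-/-Puma+/+ had Xist at 0.177 CPM, where the other 3 of its group had 40.4 to 88.96 CPM. The part of these differences in the members' values was not tested. The study's heat maps leave out replicate 2 of the G3 mTerc-/-Puma-/- label without a stated reason, while its methods state that no data were excluded. The comparisons below followed the heat maps and used the other 14 libraries, with values over all 15 given as such.

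To show the sequence context of genes described below, the 250 bases before the RefSeq start of transcription (GRCm38.p6) were searched on both strands for AGATAA or TGATAA, letters that GATA factors are known to bind, and for CCNCNCCC, letters of the kind bound by KLF1 and related factors. Promoter windows were found for 23 of the 30 members. The GATA letters stood before 11 of these 23 genes (47.8%), against 18.8% of all 27025 genes with a window. The KLF letters stood before 15 of 23 (65.2%), against 48.5% of all genes. Both stood before 4 of 23 (17.4%), against 5.23%. Counted over windows, 37.5% of 32 member windows and 16.6% of all 32851 windows held the GATA letters. The 11 genes were Klf1, Hemgn, Epb42, Rhag, Rhd, Icam4, Ermap, Kel, Sphk1, Trim10 and Tmcc2. A match describes the letters of the window and is not a measured binding site. The windows of 3 genes, which end at the base before the annotated gene, are shown as examples, Rhd and Trim10 with the GATA letters and Add2 with overlapping KLF letters. Capitals mark the match, all windows are on the plus strand, and positions count back from the start of transcription.
Rhd, chr4:134864286-134864535, match at -43: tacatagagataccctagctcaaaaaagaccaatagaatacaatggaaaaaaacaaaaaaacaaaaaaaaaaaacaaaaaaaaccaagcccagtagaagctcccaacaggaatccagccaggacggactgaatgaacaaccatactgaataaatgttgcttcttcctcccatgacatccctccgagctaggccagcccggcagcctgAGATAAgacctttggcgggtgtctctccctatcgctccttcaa
Trim10, chr17:36869324-36869573, match on the minus strand at -163: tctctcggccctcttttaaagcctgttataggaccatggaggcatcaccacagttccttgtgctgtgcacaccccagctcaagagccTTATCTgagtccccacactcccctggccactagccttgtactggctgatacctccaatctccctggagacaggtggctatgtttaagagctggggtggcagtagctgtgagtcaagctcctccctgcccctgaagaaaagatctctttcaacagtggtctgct
Add2, chr6:86028431-86028680, matches on the minus strand at -45 and -39: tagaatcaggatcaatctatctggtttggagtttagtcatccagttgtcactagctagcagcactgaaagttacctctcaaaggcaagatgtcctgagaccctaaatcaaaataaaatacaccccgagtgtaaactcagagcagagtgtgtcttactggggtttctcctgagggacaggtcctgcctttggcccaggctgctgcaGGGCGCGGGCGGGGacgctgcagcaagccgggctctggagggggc

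The members differed widely in level. Per kb of exon, averaged over 14 libraries, Tfrc, the transferrin receptor that takes up iron, was highest at 30.2 normalized CPM per kb. Car1 at 26.1 and Car2 at 24.4 CPM per kb, the cytosolic carbonic anhydrases, came next, followed by the glutathione transferase Mgst3 at 13.8 and the water channel Aqp1 at 10.1. Klf1 was at 5.08 CPM per kb. The membrane genes of later cells were far lower, with Slc4a1 (band 3) at 2.06, Sptb (beta-spectrin) at 0.617, Ank1 (ankyrin) at 0.352, Epb42 at 0.232 and Dmtn (dematin) at 0.188 CPM per kb. In the plot of level per length the points of neighbouring genes overlap along most of this order, so that only distant ranks are separated.

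**Figure D1:**
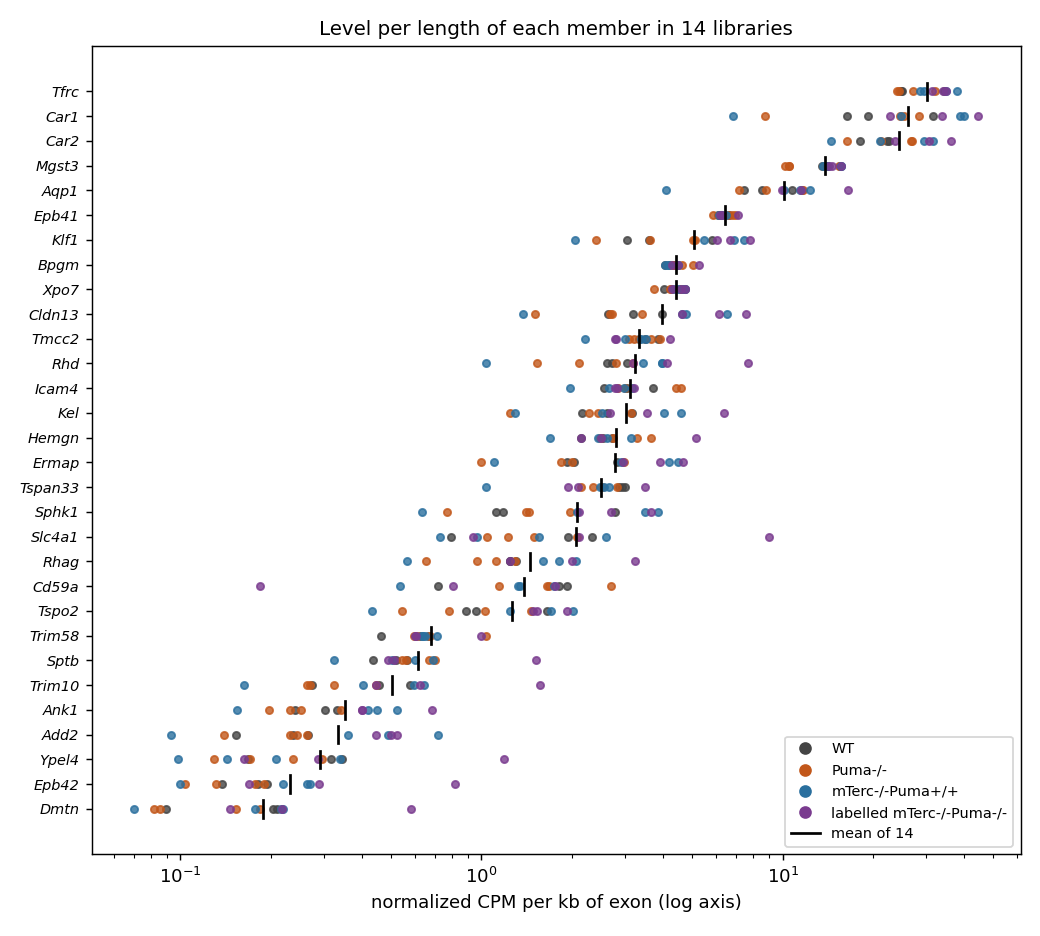
Level of the 30 members per kb of exon in 14 libraries on a log axis, ordered by their mean (black bar), with 1 point per library coloured by genotype. Tfrc, Car1 and Car2 lead with means of 30.2, 26.1 and 24.4 CPM per kb, and Dmtn is lowest at 0.188.

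The members varied more between libraries than most genes, and mainly within genotypes. Over 14 libraries, the range of log2 CPM had a median of 2.21 in the members and 0.87 in all tested genes. The share of the variance of log2 CPM that lay between genotypes had a median of 0.272 in the members and 0.242 in all tested genes, and it was above that second value in 20 of 30 members. Replicate 1 of the libraries bearing the G3 mTerc-/-Puma-/- label was the highest of the 14 in 19 members, and replicate 2 of G3 mTerc-/-Puma+/+ was the lowest of the 14 in 21 members. The matching shares of all genes are not given here, so these counts do not show what is particular to the members. The mean log2 CPM over the 30 members lay between 2.83 and 2.89 in WT. It was 2.37, 3.06, 2.95 and 2.63 in Puma-/-, and 3.10, 2.02, 3.30 and 3.15 in G3 mTerc-/-Puma+/+. In the libraries bearing the G3 mTerc-/-Puma-/- label it was 3.68, 3.27 and 2.94 in replicates 1, 3 and 4, and 5.82 in replicate 2. As group means with SD, WT was at 2.85 ± 0.034 (n = 3), Puma-/- at 2.75 ± 0.313 (n = 4), G3 mTerc-/-Puma+/+ at 2.89 ± 0.587 (n = 4) and the libraries bearing the G3 mTerc-/-Puma-/- label at 3.30 ± 0.368 (n = 3).

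**Figure D2:**
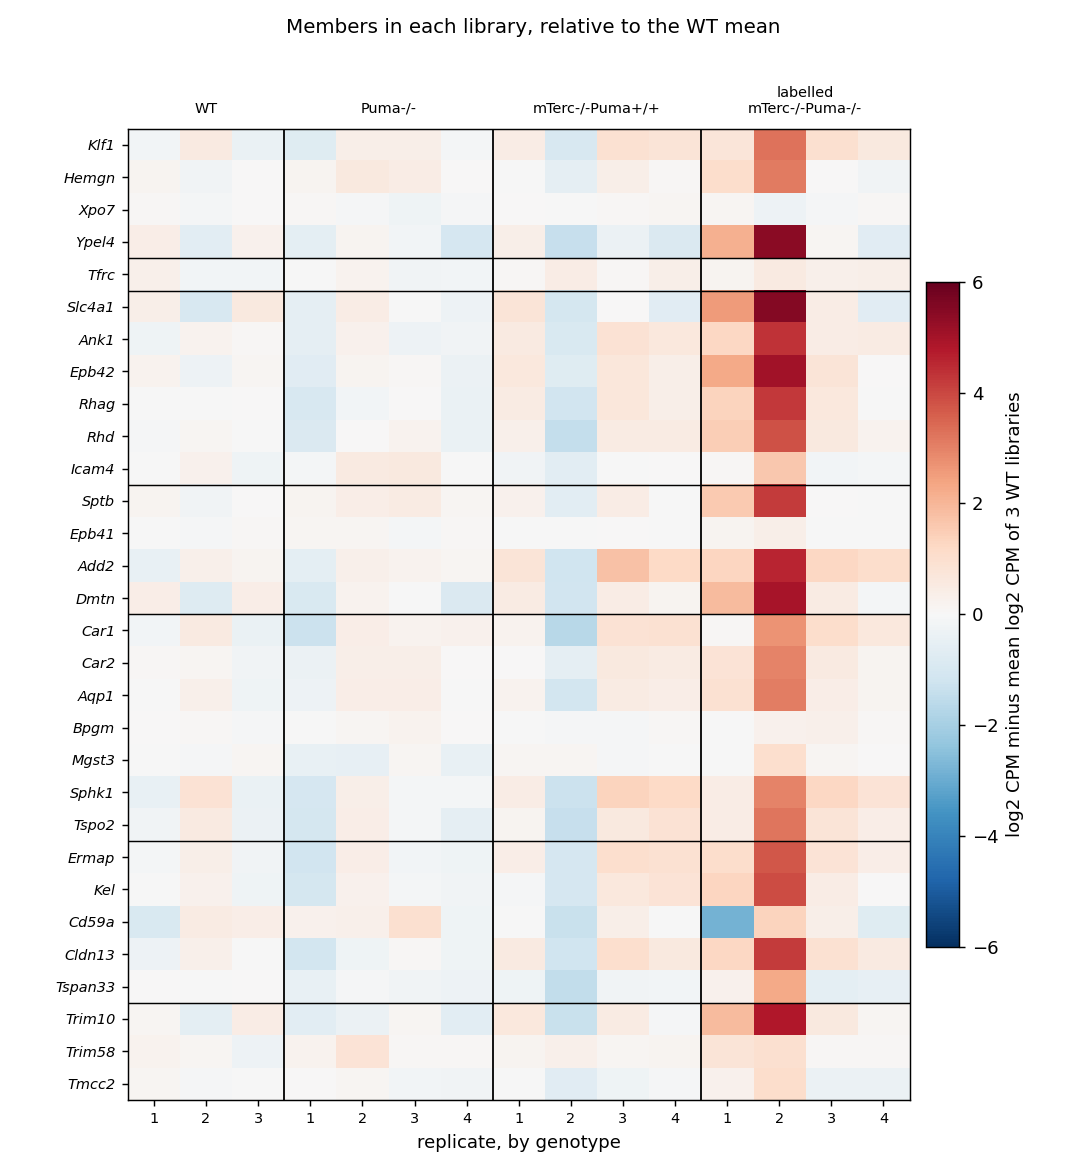
Log2 CPM of each member minus its mean over the 3 WT libraries, in all 15 libraries by genotype and replicate, with members grouped by role. Replicate 2 of the G3 mTerc-/-Puma-/- label is the highest of all 15 in 28 of 30 members, and replicate 2 of G3 mTerc-/-Puma+/+ is the lowest of the other 14 in 21. The matching shares of all genes are not given here.

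Replicate 2 of the libraries bearing the G3 mTerc-/-Puma-/- label was highest of all 15 libraries in 28 of 30 members, a count not given for all genes. The exceptions were Bpgm, an enzyme of erythrocyte glycolysis, at 18.3 CPM where replicate 3 had 18.9, and Xpo7, a nuclear export factor, at 67.4 CPM. Relative to the mean of the other 3 libraries of its label, 9 members were over 10-fold higher there. These were Ypel4 at 21.1-fold, Slc4a1 at 17.2-fold, Dmtn at 15.2-fold, Trim10 at 13.6-fold, Epb42 at 13.3-fold, Ank1 at 11.7-fold, Rhag and Sptb at 11.2-fold each and Add2 at 10.5-fold. On the log2 scale 24 of 30 members (80%) were more than 1 unit above the mean of the other 3, against 13.9% of all tested genes. Tfrc at 1.22-fold, Epb41 at 1.22-fold, Trim58 at 1.56-fold and Mgst3 at 1.93-fold stayed nearer to the other libraries. The 4 globin genes summed to 1249 CPM in that library and to 17.3 to 193 CPM elsewhere. Neutrophil and granule markers also summed higher in it, at 27596 CPM for 7 genes against 12573 to 25384 elsewhere, macrophage markers at 265.6 CPM for 5 genes against 54.4 to 207, and T and NK markers at 610.2 CPM for 4 genes against 307 to 493. Mast cell and basophil markers were lower, at 936 CPM for 5 genes against 1222 to 3770, and so were plasmacytoid dendritic markers, at 70.2 CPM for 3 genes against 89.3 to 216. The part of other cells in these levels was not tested.

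Among regulators and nuclear factors, Klf1 (ENSMUSG00000054191, chromosome 8, 84901928 to 84905291, plus strand; GRCm38, GENCODE vM21) was at 5.51, 8.91 and 4.65 CPM in WT. It was at 3.66, 7.81, 7.71 and 5.55 CPM in Puma-/-, and at 8.42, 3.14, 11.4 and 10.6 CPM in G3 mTerc-/-Puma+/+. In the libraries bearing the G3 mTerc-/-Puma-/- label it was at 10.3, 11.9 and 9.26 CPM, and at 58.6 CPM in replicate 2. Every library of that label was above every WT and Puma-/- library, while the G3 mTerc-/-Puma+/+ libraries spanned both. Ypel4, a small nuclear protein of the Yippee family (ENSMUSG00000034059, chromosome 2, 84734058 to 84738655, plus strand), was at 0.899, 0.438 and 0.824 CPM in WT, at 0.445, 0.774, 0.618 and 0.337 CPM in Puma-/- and at 0.889, 0.256, 0.544 and 0.374 CPM in G3 mTerc-/-Puma+/+. In the libraries bearing the G3 mTerc-/-Puma-/- label it was at 3.10, 0.749 and 0.424 CPM, and at 30.1 CPM in replicate 2. Unlike Klf1, it was high in replicates 1 and 2 of that label alone, and the other libraries overlapped with the remaining genotypes. Hemgn, a nuclear protein of erythroid progenitors, spanned 3.04-fold over the 14 libraries with its highest value in the same replicate 1, and Xpo7 spanned 1.27-fold.

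Tfrc (ENSMUSG00000022797, chromosome 16, 32608920 to 32632794, plus strand), the gene of iron uptake, was at 212, 155 and 153 CPM in WT and at 168, 199, 149 and 151 CPM in Puma-/-. It was at 182, 234, 177 and 215 CPM in G3 mTerc-/-Puma+/+ and at 194, 253, 212 and 216 CPM in the 4 libraries under the G3 mTerc-/-Puma-/- label. The libraries of all genotypes overlapped, and replicate 2 of G3 mTerc-/-Puma+/+, lowest for most members, was here the highest of the 14.

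In the complex of band 3, ankyrin and Rh proteins, Epb42 (ENSMUSG00000023216, chromosome 2, 121017891 to 121037072, minus strand), which anchors band 3 to the skeleton, was at 1.05, 0.745 and 0.983 CPM in WT and at 0.563, 1.02, 0.958 and 0.710 CPM in Puma-/-. It was at 1.43, 0.541, 1.46 and 1.19 CPM in G3 mTerc-/-Puma+/+ and at 4.44, 1.56 and 0.918 CPM in the libraries bearing the G3 mTerc-/-Puma-/- label, with 30.6 CPM in replicate 2. Replicates 1 to 3 of that label exceeded all WT and Puma-/- libraries, and replicate 4 did not. Rhd, an Rh blood group protein (ENSMUSG00000028825, chromosome 4, 134864536 to 134896172, plus strand), was at 4.16, 4.84 and 4.33 CPM in WT, at 2.44, 4.45, 5.10 and 3.35 CPM in Puma-/- and at 5.47, 1.65, 6.32 and 6.33 CPM in G3 mTerc-/-Puma+/+. It was at 12.2, 6.59 and 5.07 CPM in the libraries bearing the G3 mTerc-/-Puma-/- label and at 63.0 CPM in replicate 2, all above WT. Slc4a1 (ENSMUSG00000006574, chromosome 11, 102348824 to 102366203, minus strand), which encodes band 3 and was chosen for display after its values were seen, was at 9.51, 3.87 and 11.4 CPM in WT, at 5.12, 10.2, 7.31 and 6.01 CPM in Puma-/- and at 12.7, 3.56, 7.62 and 4.74 CPM in G3 mTerc-/-Puma+/+. It was at 44.1, 10.3 and 4.60 CPM in the libraries bearing the G3 mTerc-/-Puma-/- label, and at 338 CPM in replicate 2. Ank1 and Rhag, the Rh-associated glycoprotein, spanned 4.44-fold and 5.74-fold over 14 libraries. Icam4, an adhesion protein and blood group antigen, spanned 2.33-fold, with its highest 14-library level in Puma-/-.

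In the spectrin skeleton and its junctions, Add2 (ENSMUSG00000030000, chromosome 6, 86028681 to 86124409, plus strand), beta-adducin, which caps actin at the spectrin junctions, was at 1.55, 2.68 and 2.39 CPM in WT and at 1.42, 2.68, 2.47 and 2.34 CPM in Puma-/-. It was at 3.65, 0.945, 7.25 and 4.95 CPM in G3 mTerc-/-Puma+/+ and at 5.32, 5.06 and 4.51 CPM in the libraries bearing the G3 mTerc-/-Puma-/- label, with 52.3 CPM in replicate 2. All libraries of that label lay above all WT and Puma-/- libraries, and 3 of 4 G3 mTerc-/-Puma+/+ libraries did too. Epb41, which joins spectrin to actin and is made in many cells (ENSMUSG00000028906, chromosome 4, 131923413 to 132075321, minus strand), was at 99.6, 97.6 and 106 CPM in WT, at 108, 110, 93.4 and 105 CPM in Puma-/-, at 98.3, 99.9, 104 and 99.7 CPM in G3 mTerc-/-Puma+/+ and at 114, 128, 101 and 98.7 CPM in the 4 labelled libraries. It was the least variable member, with a 1.22-fold range over 14 libraries. Sptb and Dmtn spanned 4.68-fold and 8.29-fold, both with their highest value in replicate 1 of the libraries bearing the G3 mTerc-/-Puma-/- label.

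Among the carbonic anhydrases, channels and enzymes, Car1 (ENSMUSG00000027556, chromosome 3, 14766216 to 14808368, minus strand) was at 23.9, 39.4 and 20.4 CPM in WT and at 10.9, 35.5, 30.7 and 31.7 CPM in Puma-/-. It was at 30.9, 8.55, 48.6 and 49.97 CPM in G3 mTerc-/-Puma+/+ and at 28.3, 55.8 and 42.2 CPM in the libraries bearing the G3 mTerc-/-Puma-/- label, with 172 CPM in replicate 2. The genotypes overlapped, and replicate 1 of the last group, the highest of the 14 libraries in 19 members, was the lowest of that group for Car1. Mgst3 (ENSMUSG00000026688, chromosome 1, 167371966 to 167393841, minus strand) was at 15.4, 14.8 and 17.0 CPM in WT and at 11.6, 11.1, 16.9 and 11.5 CPM in Puma-/-. It was at 17.1, 17.2, 14.9 and 15.5 CPM in G3 mTerc-/-Puma+/+ and at 15.7, 31.4, 17.2 and 16.1 CPM in the 4 labelled libraries. In Puma-/-, 3 of 4 libraries were below all others, and replicate 3 was not. Sphk1, a sphingosine kinase, and Tspo2, a translocator protein of erythroid cells, spanned 6.05-fold and 4.65-fold over 14 libraries. Car2 and Aqp1 spanned 2.505-fold and 4.02-fold, and Bpgm 1.29-fold.

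Among other surface proteins and blood group antigens, Cldn13, a claudin of mouse erythroid cells (ENSMUSG00000008843, chromosome 5, 134914249 to 134915526, minus strand), was at 2.81, 4.24 and 3.40 CPM in WT and at 1.60, 2.85, 3.64 and 2.89 CPM in Puma-/-. It was at 4.95, 1.47, 6.96 and 5.08 CPM in G3 mTerc-/-Puma+/+ and at 8.05, 6.57 and 4.96 CPM in the libraries bearing the G3 mTerc-/-Puma-/- label, with 62.7 CPM in replicate 2. Every labelled library was above every WT and Puma-/- library. Ermap and Kel, both blood group proteins, spanned 4.69-fold and 5.14-fold over 14 libraries with their lowest values in replicate 1 of Puma-/-. Tspan33, a tetraspanin, spanned 3.36-fold. It was at 14.8 to 15.6 CPM in WT, and every Puma-/- library (11.2 to 14.6 CPM) was lower. Every G3 mTerc-/-Puma+/+ library (5.39 to 13.8 CPM) was below WT too, while the libraries of the G3 mTerc-/-Puma-/- label overlapped with WT. Cd59a, an inhibitor of complement, had the widest range of all at 14.7-fold, with its lowest value of 0.334 CPM in replicate 1 of the libraries bearing the G3 mTerc-/-Puma-/- label.

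Among the ubiquitin ligases and other maturation proteins, Trim10 (ENSMUSG00000073400, chromosome 17, 36869574 to 36877833, plus strand), a RING-type ligase of erythroblasts, was at 1.03, 0.614 and 1.30 CPM in WT and at 0.605, 0.729, 1.003 and 0.592 CPM in Puma-/-. It was at 1.45, 0.364, 1.34 and 0.906 CPM in G3 mTerc-/-Puma+/+ and at 3.502, 1.40 and 1.004 CPM in the libraries bearing the G3 mTerc-/-Puma-/- label, with 26.8 CPM in replicate 2. Its labelled libraries lay above all Puma-/- libraries and overlapped with WT and G3 mTerc-/-Puma+/+, and the closest pair, at 1.0041 and 1.0031 CPM, was nearly level. Tmcc2, a membrane protein with coiled coils (ENSMUSG00000042066, chromosome 1, 132356315 to 132391281, minus strand), was at 22.02, 19.1 and 19.9 CPM in WT, at 20.8, 22.3, 18.3 and 17.6 CPM in Puma-/-, at 20.03, 12.6, 17.1 and 19.2 CPM in G3 mTerc-/-Puma+/+ and at 24.1, 42.5, 15.97 and 15.8 CPM in the 4 labelled libraries. Its genotypes overlapped. Trim58, a ligase that acts on dynein in late erythroblasts, spanned 2.23-fold over 14 libraries.

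**Figure D3:**
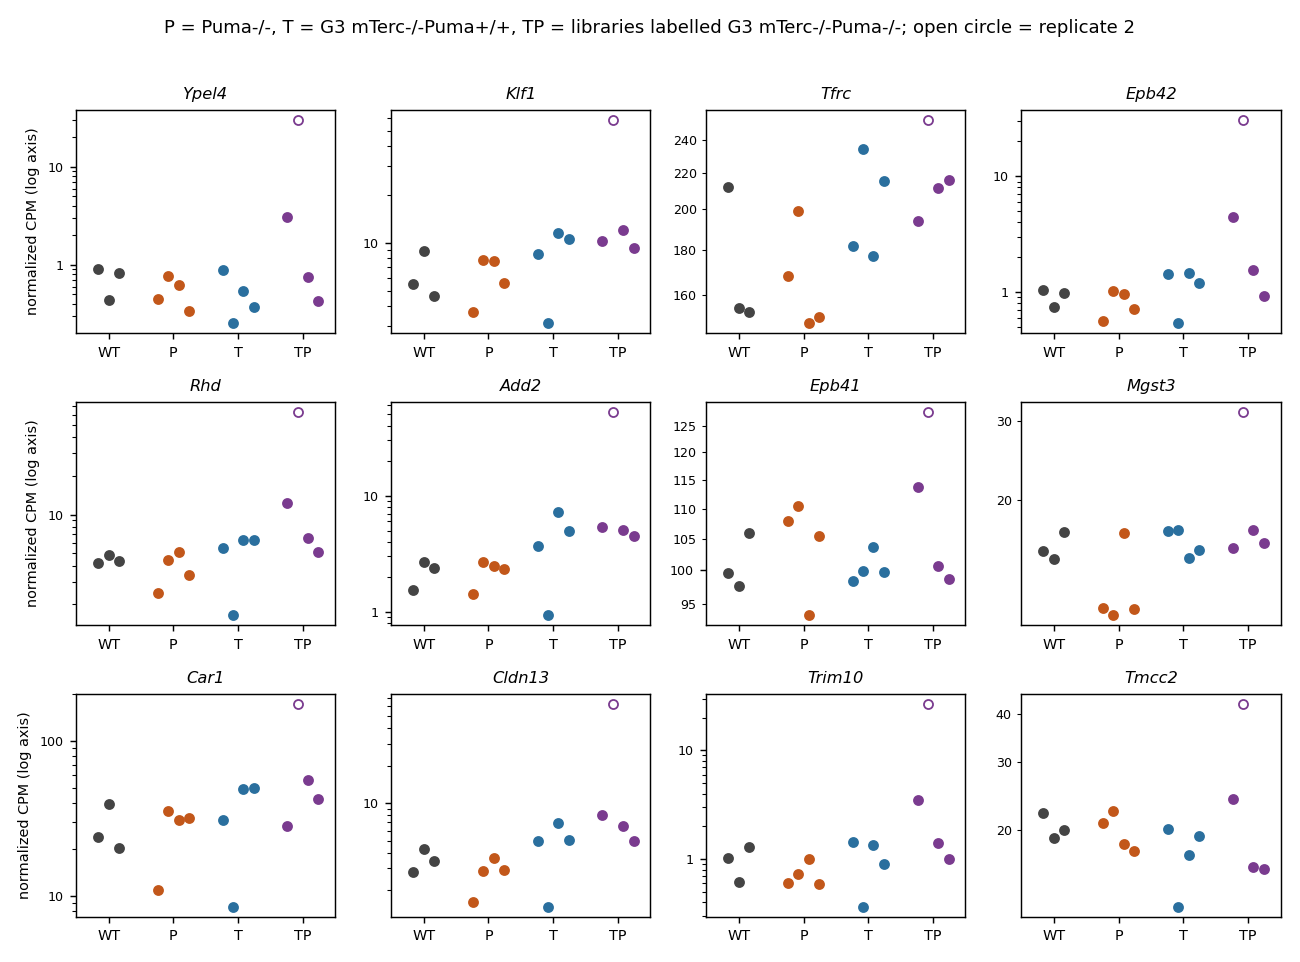
Normalized CPM (log axes) of 12 members in each library, by genotype, with replicate 2 of the G3 mTerc-/-Puma-/- label as an open circle. The open circle is the highest point in every panel, and Klf1, Add2 and Cldn13 are above all WT and Puma-/- libraries in each library of that label. The share of all genes above WT in this way is not given here.

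Genotypes were compared with edgeR's quasi-likelihood test and Benjamini-Hochberg adjustment over all 18983 genes, and no member had an adjusted p under 0.05 in any of the 8 comparisons. Among all genes, 15 (0.0790%) passed in Puma-/- against WT, 7 (0.0369%) in G3 mTerc-/-Puma+/+ against WT, 12 (0.0632%) in the libraries bearing the G3 mTerc-/-Puma-/- label against WT, 152 (0.801%) in G3 mTerc-/-Puma+/+ against Puma-/-, 58 (0.306%) in the libraries bearing the G3 mTerc-/-Puma-/- label against Puma-/-, 14 (0.0738%) in the libraries bearing the G3 mTerc-/-Puma-/- label against G3 mTerc-/-Puma+/+, 10 (0.0527%) for the interaction of mTerc and Puma and 85 (0.448%) for any difference between genotypes. DESeq2 and limma-voom also called 0 of 30 members in each comparison. In the same order, the shares of all genes called were 0.716%, 0.242%, 0.479%, 5.25%, 1.51%, 0.906%, 0.337% and 4.4% with DESeq2, and 0.0579%, 0.0316%, 0.0685%, 0.832%, 0.306%, 0.0632%, 0.0263% and 0.332% with limma-voom. The edgeR counts over all genes moved with single libraries, for example from 152 to 18 without Puma-/- replicate 4 and from 58 to 18 without replicate 3 of the G3 mTerc-/-Puma-/- label. The unadjusted p-values below describe the order of the members.

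The groups with a single deletion were each compared with WT. In Puma-/- against WT, 10 members were higher and 20 lower, with a median log2 fold change of -0.13 in the members and 0.00 in all genes. Mgst3 was the only member with an unadjusted p under 0.05, against 10.1% of all genes, with a difference of -0.30 on the log2 scale (SE 0.137, adjusted p = 0.484, edgeR). The median was -0.04 without WT replicate 2 and -0.22 without Puma-/- replicate 2, and Mgst3 was at -0.48 without Puma-/- replicate 3. Without WT replicate 1, Mgst3 did not have an unadjusted p under 0.05 by edgeR. Megakaryocyte markers (6 of 6) and stem cell markers (4 of 4) were higher in this contrast at an unadjusted p under 0.05, and their part in these values was not tested. In G3 mTerc-/-Puma+/+ against WT, 22 members were higher and 8 lower, with a median of 0.12 in the members and 0.02 in all genes. None had an unadjusted p under 0.05 with edgeR (3.86% of all genes), and DESeq2 gave 1 (4.19% of all genes) and limma-voom 0 (3.45%). Add2 was farthest from WT at 0.93 (SE 0.469, adjusted p = 0.998). Without replicate 2 of G3 mTerc-/-Puma+/+, the library lowest in most members, 6 members had an unadjusted p under 0.05, against 4.80% of all genes in that fit, and the median was 0.30. Without replicate 3 of G3 mTerc-/-Puma+/+ the median was 0.04 and Add2 was at 0.53. Of the B lymphoid markers 3 of 7 were lower than in WT at an unadjusted p under 0.05, and their part was not tested.

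The G3 mTerc-/-Puma+/+ and Puma-/- groups were compared as the pair that differs in both genes. Of the 30 members 19 were higher and 11 lower in G3 mTerc-/-Puma+/+, with a median log2 fold change of 0.31 in the members and 0.00 in all genes. Of all members, 3 had an unadjusted p under 0.05, against 17.1% of all genes. Mgst3 was higher by 0.34 (SE 0.127, adjusted p = 0.201), Tfrc was higher by 0.28 (SE 0.129, adjusted p = 0.290), and Icam4 was at -0.46 (SE 0.201, adjusted p = 0.257, all edgeR). Without replicate 3 of Puma-/-, in which Mgst3 is as high as in WT, its difference was 0.51 with an adjusted p of 0.0372 by edgeR, where 0.878% of all genes had an adjusted p under 0.05. Without replicate 2 of G3 mTerc-/-Puma+/+, 10 members had an unadjusted p under 0.05, against 12.9% of all genes in that fit, and without Puma-/- replicate 1 there was 1, against 13.6%. The median was 0.18 without replicate 4 of G3 mTerc-/-Puma+/+. Megakaryocyte markers moved between the same groups, at 353 to 582 CPM summed over 6 genes in Puma-/- and 171 to 236 in G3 mTerc-/-Puma+/+, with 4 of 6 lower at an adjusted p under 0.05. At an unadjusted p under 0.05, 4 of 7 B lymphoid, 3 of 3 plasmacytoid dendritic, 3 of 4 stem cell and 3 of 5 mast cell and basophil markers were lower too, 1 of the B lymphoid ones at an adjusted p under 0.05 by edgeR. Their part in these values was not tested.

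The libraries bearing the G3 mTerc-/-Puma-/- label had most members above the other genotypes. Against WT, 26 were higher and 4 lower, with a median log2 fold change of 0.63 in the members and 0.00 in all genes. Epb42 at 1.32 (SE 0.497, adjusted p = 0.751) and Add2 at 1.17 (SE 0.496, adjusted p = 0.844, both edgeR) had an unadjusted p under 0.05, and so had 5.45% of all genes. Without replicate 1 of the label the median was 0.25, Epb42 was at 0.42, and 0 members were under 0.05 (7.66% of all genes), while 12 were without replicate 4 of the label (5.87%) and 11 without replicate 2 of G3 mTerc-/-Puma+/+ (6.42%). Against WT, 5 of 7 B lymphoid, 3 of 3 plasmacytoid dendritic and 3 of 7 neutrophil and granule markers were higher at an unadjusted p under 0.05. At that p 4 of 4 globins were higher too and 5 of 6 megakaryocyte markers lower, and the part of all these genes was not tested. Against G3 mTerc-/-Puma+/+, 28 were higher and 2 lower, with a median of 0.30 in the members and -0.01 in all genes. Ypel4 at 1.46 (SE 0.585, adjusted p = 0.677), Slc4a1 at 1.46 (SE 0.629, adjusted p = 0.742) and Epb42 at 0.998 (SE 0.452, adjusted p = 0.782) had an unadjusted p under 0.05, against 6.22% of all genes. Without replicate 1 of the labelled group these 3 differences from G3 mTerc-/-Puma+/+ were 0.17, 0.06 and 0.10, 0 members had an unadjusted p under 0.05 (6.34% of all genes) and the median was 0.09. Without replicate 4 of the label 7 members were under 0.05 (7.0% of all genes), and without replicate 2 of G3 mTerc-/-Puma+/+ 0 were (6.59%). The median was 0.50 without replicate 3 of G3 mTerc-/-Puma+/+. B lymphoid markers moved between the same groups, at 59.0 to 121 CPM summed over 7 genes under the label and 37.4 to 51.3 CPM in G3 mTerc-/-Puma+/+, with 2 of 7 higher at an adjusted p under 0.05 by edgeR. Plasmacytoid dendritic markers were at 184 to 216 and 89.3 to 135 CPM over 3 genes, with 3 of 3 higher at an unadjusted p under 0.05, and 3 of 5 macrophage markers, 3 of 7 neutrophil and granule markers and 4 of 4 globins were higher at that p. Their part in the members' values was not tested. For the interaction of mTerc and Puma, 27 were higher and 3 lower with a median of 0.37, and Ypel4 alone had an unadjusted p under 0.05 (4.93% of all genes) at 1.87 (SE 0.833, adjusted p = 0.989). Without replicate 1 of the label it was at 0.58, and 0 members were under 0.05 (4.59% of all genes), while 5 were without replicate 4 of the label (5.41%). Leaving out 1 library at a time, the interaction's median was 0.19 to 0.54, lowest without replicate 2 and highest without replicate 3 of G3 mTerc-/-Puma+/+. At an unadjusted p under 0.05, megakaryocyte (6 of 6) and stem cell markers (2 of 4) had negative and B lymphoid (4 of 7), plasmacytoid dendritic (3 of 3) and globin genes (4 of 4) positive interaction terms, and their part was not tested. For any difference between the genotypes, Epb42, Cldn13, Add2 and Trim10 had an unadjusted p under 0.05, 4 of 30 against 11.4% of all genes, with adjusted p from 0.330 to 0.432, 0 of 30 against 12.6% without replicate 1 of the label and 10 of 30 against 11.9% without replicate 2 of G3 mTerc-/-Puma+/+.

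The contrast with the most members at a low p was the libraries bearing the G3 mTerc-/-Puma-/- label against Puma-/-, which share the Puma deletion by their labels. As stated above, sex and genotype cannot be told apart in it. There 27 members were higher and 3 lower, with a median log2 fold change of 0.69 in the members and 0.01 in all genes. An unadjusted p under 0.05 was reached by 14 of 30 members, all higher, where 8.42% of all genes reached it in either direction and 3.51% as higher. They came from every role group. In the band 3 and Rh complex, 5 of 6 were among them, with Epb42 at 1.505 (SE 0.456, adjusted p = 0.288), Slc4a1 at 1.46 (SE 0.630), Rhag at 1.10 (SE 0.385), Rhd at 1.05 (SE 0.403) and Ank1 at 0.96 (SE 0.338). In the skeleton, Dmtn at 1.33 (SE 0.501) and Add2 at 1.16 (SE 0.455) were included. Surface proteins gave Cldn13 at 1.25 (SE 0.396, adjusted p = 0.330), Ermap at 0.98 (SE 0.406) and Kel at 0.89 (SE 0.406). The others were Trim10 at 1.43 (SE 0.471, adjusted p = 0.366), Ypel4 at 1.39 (SE 0.585), Mgst3 at 0.35 (SE 0.137) and Tfrc at 0.31 (SE 0.138). Klf1 at 0.76 (SE 0.373), Sphk1 at 1.01 (SE 0.4995) and Tspo2 at 0.78 (SE 0.427) did not reach it. Icam4 at -0.34 (SE 0.217) and Cd59a at -0.97 (SE 0.600) were on the other side of 0.

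**Figure D4:**
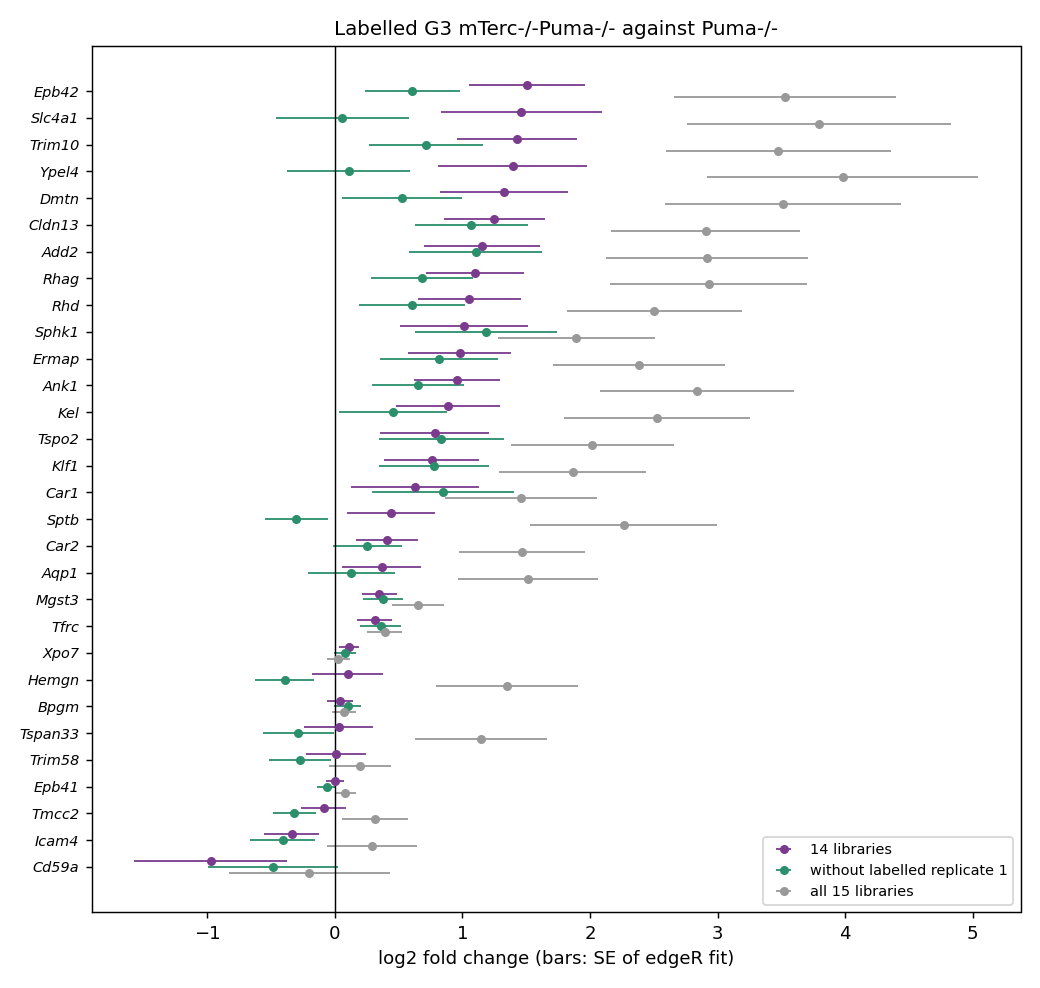
Log2 fold change (points) with SE (bars) of the 30 members for the G3 mTerc-/-Puma-/- label against Puma-/-, from 14 libraries, without replicate 1 of the labelled group and with all 15 libraries. Slc4a1 goes from 1.46 to 0.06 without replicate 1, while Add2 goes from 1.16 to 1.10, and most values are larger with all 15 libraries.

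This contrast depended on single libraries. Without replicate 1 of the labelled group, 3 of 30 members had an unadjusted p under 0.05, against 10.2% of all genes tested there, and the median was 0.37. Slc4a1 was then at 0.06, Ypel4 at 0.11, Kel at 0.45, Dmtn at 0.53, Rhd at 0.60, Epb42 at 0.61, Rhag at 0.68, Trim10 at 0.71 and Add2 at 1.10. Cd59a was at -0.48 without that replicate and at -1.86 without replicate 3 of the label, and Icam4 was at -0.21 without Puma-/- replicate 3. Without Puma-/- replicate 1 there were 5 such members (7.59% of all genes), and without Puma-/- replicate 4 there were 7 (6.48%), while without replicate 2 of G3 mTerc-/-Puma+/+ there were 17 (10%). DESeq2 and limma-voom each gave 14 (9.22% and 8.62% of all genes), and a fit with the replicate number as a block gave 9 (7.04%), with 0 members and 0.111% of all genes at an adjusted p under 0.05. With all 15 libraries 23 of 30 had an unadjusted p under 0.05 against Puma-/- (7.48% of all genes), 21 of 30 against WT (8.80%) and 19 of 30 against G3 mTerc-/-Puma+/+ (10.2%), with medians of 1.88, 1.69 and 1.54, and none had an adjusted p under 0.05, where 0.308%, 0.0418% and 0.0313% of all genes had. Megakaryocyte markers were lower in this contrast, at 133 to 185 CPM summed over 6 genes in the 3 labelled libraries against 353 to 582 CPM in Puma-/-, and plasmacytoid dendritic markers were higher, at 184 to 216 against 138 to 155 CPM over 3 genes. Stem cell markers were at 16.1 to 23.9 against 33.9 to 48.1 CPM, with 4 of 4 lower at an unadjusted p under 0.05. Of the B lymphoid markers, 1 of 7 was higher at an adjusted p under 0.05 by edgeR, and at an unadjusted p under 0.05 3 of 5 mast cell and basophil markers were lower and 3 of 7 neutrophil and granule markers higher. Their part in the members' values was not tested.

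A set of 7 members lay above every Puma-/- library in every labelled library, both with the 3 libraries and with all 4. They were Klf1, Ank1, Add2, Sphk1, Tspo2, Cldn13 and Trim10, 7 of 30 against 4.0% of all genes with 14 libraries and 1.52% with 15. The gap was narrow for Trim10, where the lowest labelled library was at 1.0041 CPM and the highest Puma-/- library at 1.0031, and for Tspo2, at 4.79 and 4.72 CPM. It was wider for Add2, at 4.96 ± 0.414 CPM (SD, n = 3) against 2.23 ± 0.556 in Puma-/- (n = 4) and 2.21 ± 0.587 in WT (n = 3). Klf1 was at 10.5 ± 1.34 CPM against 6.18 ± 1.98 in Puma-/- and 6.36 ± 2.25 in WT. For genes with every library of the label above every WT library, the share of all genes is not given here.

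Across the 14 libraries some members went with Klf1 and others with Slc4a1, both taken as references after the values were seen, as was the limit of 0.85 used here. On log2 CPM, 11 members had Pearson's r over 0.85 with Klf1, led by Tspo2 (r = 0.964, rho = 0.956), Sphk1 (r = 0.958, rho = 0.969) and Ermap (r = 0.951, rho = 0.903), and including Car1, Car2, Add2, Cldn13, Aqp1, Kel, Rhd and Ank1. With Slc4a1, 5 members had r over 0.85, namely Ypel4 (r = 0.966, rho = 0.886), Dmtn (r = 0.893), Epb42 (r = 0.874), Trim10 (r = 0.871) and Sptb (r = 0.860), and 0 members were over 0.85 with both. Klf1 and Slc4a1 themselves had r = 0.320 and rho = 0.218. The remaining 12 members were at or under 0.85 with each. Without the 2 libraries farthest from the median of Klf1, Tspo2 was at r = 0.916 and Sphk1 at 0.915 over 12 libraries, and 4 of the 11 stayed over 0.85. Without the 2 farthest for Slc4a1, which include replicate 1 of the libraries bearing the G3 mTerc-/-Puma-/- label, Ypel4 alone stayed over 0.85 at r = 0.895, with Dmtn at 0.736, Epb42 at 0.590, Trim10 at 0.659 and Sptb at 0.491. Within genotypes, Tspo2 with Klf1 was at r = 0.974 and Ypel4 with Slc4a1 at 0.972. These values are a description over libraries that share genotypes and scaling. In level per length, Slc4a1 was at 2.06 CPM per kb and the 5 genes that went with it at 0.188 to 0.617.

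The ratio of Slc4a1 to Klf1 in CPM was 1.73, 0.435 and 2.45 in WT, 1.40, 1.30, 0.948 and 1.08 in Puma-/- and 1.51, 1.13, 0.668 and 0.448 in G3 mTerc-/-Puma+/+. In the libraries bearing the G3 mTerc-/-Puma-/- label it was 4.30, 0.865 and 0.497, and 5.77 in replicate 2. Replicates 1 and 2 of that label were above all other libraries. In replicate 1, Car1 lay within the WT range while Slc4a1, Ypel4 and Dmtn lay above it, and in replicate 2 all of these lay above it. All 4 globin genes summed to 193, 94.8 and 29.9 CPM in replicates 1, 3 and 4, and to 17.3 to 62.5 CPM in WT, Puma-/- and G3 mTerc-/-Puma+/+.

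**Figure D5:**
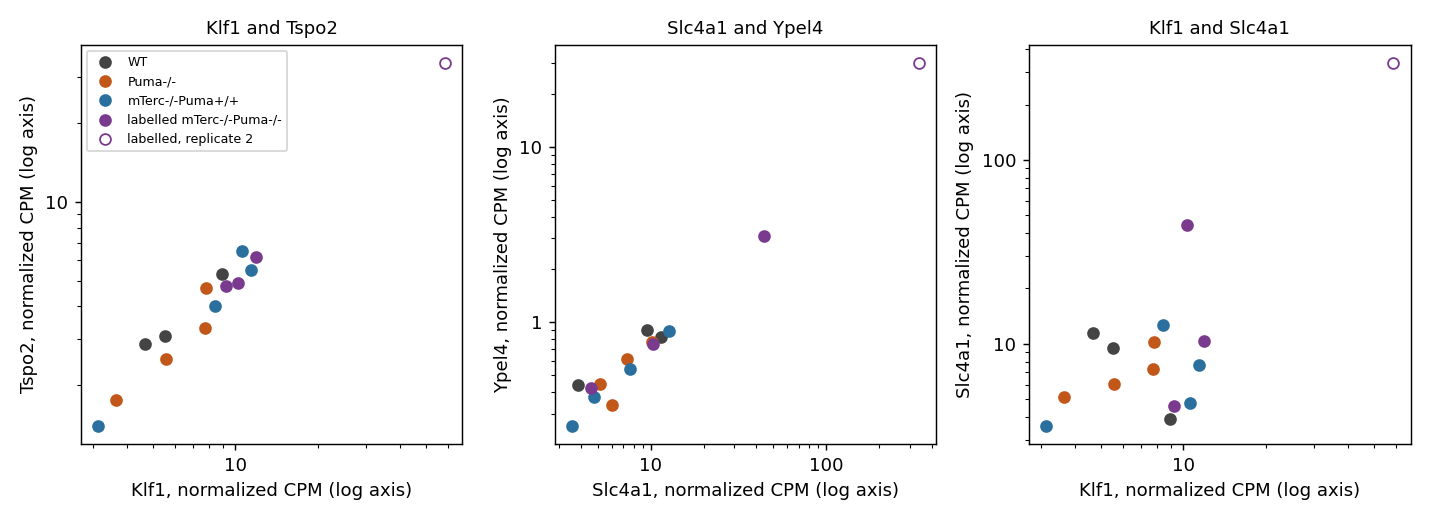
Pairs of members in all 15 libraries on log axes in normalized CPM, coloured by genotype, with replicate 2 of the G3 mTerc-/-Puma-/- label as an open circle. Tspo2 follows Klf1 (r = 0.964 over 14 libraries) and Ypel4 follows Slc4a1 (r = 0.966), while Klf1 and Slc4a1 have r = 0.320.

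Among genes that are no members, those most like the mean log2 CPM of the members over 14 libraries were Paqr9 (r = 0.954), Slc38a5 (0.929), Abcg4 (0.915), Blvrb (0.896), Agtr1a (0.896), 6030468B19Rik (0.895), Phyhip (0.879), Abcb4 (0.877), Tspan8 (0.877) and Acmsd (0.875). Blvrb, a biliverdin reductase, was the most abundant of them at 12.1 to 33.4 CPM, and it was at 103.3 CPM in replicate 2 of the libraries bearing the G3 mTerc-/-Puma-/- label. All 10 were at least as high there as in any other library.

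Of 46 other erythroid genes (regulators, membrane, heme and iron genes and globins), 0 passed the adjusted threshold in 7 of the 8 edgeR comparisons. In G3 mTerc-/-Puma+/+ against Puma-/-, 1 passed, the urea transporter Slc14a1, at -0.84 (SE 0.168, adjusted p = 0.0431, edgeR), and 5 others higher and 5 others lower had an unadjusted p under 0.05, where 17.1% of all genes had. In the libraries bearing the G3 mTerc-/-Puma-/- label against Puma-/-, 9 of 46 were higher and 5 lower at an unadjusted p under 0.05 (8.42% of all genes), with a median log2 fold change of 0.04. All 4 globins were among the 9, with a median of 1.84. Their sum was 193, 94.8 and 29.9 CPM in replicates 1, 3 and 4 of the label. The value of replicate 4 lay within the Puma-/- range of 21.8 to 41.4 CPM. The erythroid regulators of that list, which include Gata1, Tal1 and Epor, had a median of -0.14 over 17 genes, with 0 higher and 4 lower at an unadjusted p under 0.05.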

How the data were processed

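RNA was measured in 15 libraries of magnetically depleted, lineage-negative bone marrow cells. The authors sequenced stranded poly(A) libraries, trimmed reads with Trimmomatic 0.38, aligned them to GRCm38 with STAR 2.5.2b and deposited raw counts per Ensembl gene; the annotation release and the strand setting of the counting are not given in the sources used here. Groups came from the sample labels. Symbols were joined to the counts through GENCODE vM21. The members and all lists were chosen with earlier results of these data known. The fit used 14 libraries, edgeR 4.0.16 quasi-likelihood tests in R 4.3.3 with TMM factors and a filter on low counts, 1 model of 4 genotypes, and Benjamini-Hochberg adjustment over 18983 genes at a threshold of 0.05. It was tested on simulated data. CPM used TMM factors over 15 libraries, and log2 CPM a prior count of 2. Values per library are given for members called in any comparison and, in each role group, for the member with the smallest p for any genotype difference and the one with the highest level per length. The 10 genes most like the members were chosen by Pearson's r. Alternatives were DESeq2 1.42.0, limma-voom (limma 3.58.1), other scaling, filters and prior counts, a replicate block, all 15 libraries and leaving out each library. Within each genotype, no pair of libraries held the same counts within sampling noise. Promoter windows came from RefSeq. The totals per library bound counting error only. The summed late erythroblast markers are not reported here.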

Additional observations from a re-analysis of the deposited data

Results flagged for a closer look

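Dixon's test was applied on CPM to 90 groups of 4 libraries (each member in each genotype with 4). The members share these libraries, so the groups are not independent and a chance rate of 1 in 20 groups is no yardstick. A library stood apart from the other 3 in 24 groups. Of these, 22 were replicate 2 under the G3 mTerc-/-Puma-/- label, each time as the highest. Its CPM was 58.6 for Klf1, 53.4 for Hemgn, 30.1 for Ypel4, 338 for Slc4a1, 78.6 for Ank1, 30.6 for Epb42, 56.8 for Rhag, 63.0 for Rhd and 10.4 for Icam4. It was 114 for Sptb, 52.3 for Add2, 47.1 for Dmtn, 391 for Car2, 195 for Aqp1, 31.4 for Mgst3, 58.7 for Sphk1 and 34.1 for Tspo2. It was 154 for Ermap, 110.2 for Kel, 62.7 for Cldn13, 73.6 for Tspan33 and 26.8 for Trim10. The other cases were Mgst3 in Puma-/- replicate 3, highest at 16.9 CPM, and Tspan33 in G3 mTerc-/-Puma+/+ replicate 2, lowest at 5.39 CPM. The mean log2 CPM of the members in the replicate 2 that the 14-library comparisons do not use was 5.82, above the 2.83 to 2.89 of WT.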

How the results depend on the processing

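The median log2 fold change of the members kept its direction under all alternatives run. With all 15 libraries it was 1.69 for the G3 mTerc-/-Puma-/- label against WT, 1.88 against Puma-/-, 1.54 against G3 mTerc-/-Puma+/+ and 1.52 for the interaction, and Icam4 against Puma-/- changed sign to 0.29. Leaving out 1 library at a time, the number of members with an adjusted p under 0.05 in G3 mTerc-/-Puma+/+ against Puma-/- was 0 to 1, the 1 being Mgst3 without Puma-/- replicate 3, while 18 to 228 of all genes were called. The median for the label against Puma-/- was 0.37 to 0.84 over the same refits. Its unadjusted count was 14 of 30 (8.42% of all genes), 14 with DESeq2 (9.22%) and with limma-voom (8.62%), 3 without replicate 1 of the label (10.2%) and 23 with all 15 libraries (7.48%). Replicate numbers showed no clear pairing of the libraries. Over same-numbered pairs the correlation of deviations was -0.25 to 0.18, with a median of 0.020. Differently numbered libraries of other genotypes had a median of -0.017. The labels give no batch, and a batch shared by libraries was not tested. With the replicate block the count was 9 (7.04%), the median 0.72 and the members called 0 (0.111% of all genes). The causes were not tested. Among all genes, DESeq2 called 287 in this contrast where edgeR called 58.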
